A study of Homo sapiens with 6 samples.

Results

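Chemokines and interleukins are secreted signalling proteins. The genes described here encode them, their receptors and 4 further proteins: 2 antagonists, a binding protein and an enzyme with an interleukin symbol. They were chosen by symbol, as protein-coding genes whose symbol begins with CXCL, CCL, CXCR, CCR or IL and a number, or with CX3C, XCL or XCR. Of 148 such genes in the gene table, 106 had a named probe set and were measured, among 14884 genes tested in all. The other 42, among them IL1A, IL1B, IL6 and IL3RA, belong to no named probe set and were not analysed here. The measured members were 65 ligands (22 CC chemokines, 13 CXC chemokines, 3 CX3C or XC chemokines and 27 interleukins), 37 receptors (8 CC, 6 CXC, 2 CX3C or XC and 21 interleukin receptors) and 4 regulators.

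The samples were 6 arrays of MOLM14, a human acute myeloid leukaemia cell line of monocytic character, grown in RPMI with serum. Cells were electroporated with 70 nM of siRNA against ATF4 (siATF4, 3 arrays) or with a non-targeting control siRNA pool (siCTRL, 3 arrays), and the time between transfection and harvest is not given in the sources used here. Both groups thus share the electroporation and an siRNA, and neither is an untreated culture. The labels number the arrays 1 to 3 in each group and call them technical replicates, and no label names separate cultures, so a p-value here reflects array-to-array spread that may be technical. ATF4 encodes the transcription factor through which cells answer amino acid shortage and stress of the endoplasmic reticulum. Its level was 7.72, 7.88 and 8.14 with siATF4 and 8.67, 8.64 and 8.85 with siCTRL, as log2 probe brightness for replicates 1, 2 and 3 in that order, the scale and order of all levels below. The siATF4 arrays thus lay below all siCTRL arrays, by 0.80 on the log2 scale (SE 0.14), with an exact two-sided permutation p of 0.1, the smallest that 3 arrays against 3 can give, and a limma adjusted p of 1.00 over all genes.

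Chemokines form gradients that draw leukocytes through G protein-coupled receptors, and are grouped as CC, CXC, CX3C or XC by the spacing of their first cysteines. Interleukins act mostly through paired receptor chains that signal by JAK kinases and STAT factors or, in the interleukin-1 and interleukin-17 families, by adaptor proteins that lead to NF-kB. Monocytes both release and sense these proteins, and CXCR4, the receptor of CXCL12, holds blood-forming and leukaemic cells in the bone marrow.

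Markers of the labelled cell type were present: LYZ, the lysozyme of myeloid cells, lay between 8.33 and 10.87 over the arrays, and FLT3, a receptor kinase of blood-forming cells, between 8.19 and 9.67. Of 8 myeloid markers listed, 5 were measured, and CD14 was dim at 3.22 to 4.18. The 3 measured of 6 T cell markers had a mean per array of 3.97 to 4.13, and the median of all genes was 4.47. Of the 2 measured B cell markers, CD22 read 3.43 to 3.65, and PAX5 read 3.76 on siATF4 replicate 1 and 5.28 to 6.12 elsewhere. Of the 3 measured NK cell markers, NCR1 read 3.96 to 4.35, NKG7 6.61 to 7.62 and NCAM1 6.14 to 6.81. The arrays of each group also differed among themselves. On siATF4 replicate 1, 566 of all tested genes (3.80%) lay at least 1 log2 unit from the median of the other 5 arrays, against 0.363% to 2.63% on the others. Same-numbered arrays deviated together from their group means, with correlations across genes of 0.20, 0.40 and 0.62, and siATF4 replicate 2 also followed siCTRL replicate 1 (0.48).

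Of the 6 ligands with the largest differences in size, the promoters of the 4 with a match to a motif searched are shown first. The factors known to drive them bind short motifs there. RefSeq's table of promoter windows (GRCh38.p14; 300 bases around a transcript start, most of them before it) held 121 windows for 80 of the 106 members. Capitals mark matches on either strand to 3 of the 4 motifs searched: an NF-kB core (GGG, any 2 bases, TT, any base, CC), an AP-1 core (TGANTCA) and an interferon-response core (GAAA, any 2 bases, GAAA).
CXCL10, chr4:76023448-76023747, minus strand: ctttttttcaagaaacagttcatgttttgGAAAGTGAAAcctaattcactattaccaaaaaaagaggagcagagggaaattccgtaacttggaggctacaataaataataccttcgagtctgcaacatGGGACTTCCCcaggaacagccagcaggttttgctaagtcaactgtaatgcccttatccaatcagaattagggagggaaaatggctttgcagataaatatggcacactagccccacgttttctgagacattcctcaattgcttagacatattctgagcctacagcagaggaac
CXCL11, chr4:76036021-76036320, minus strand: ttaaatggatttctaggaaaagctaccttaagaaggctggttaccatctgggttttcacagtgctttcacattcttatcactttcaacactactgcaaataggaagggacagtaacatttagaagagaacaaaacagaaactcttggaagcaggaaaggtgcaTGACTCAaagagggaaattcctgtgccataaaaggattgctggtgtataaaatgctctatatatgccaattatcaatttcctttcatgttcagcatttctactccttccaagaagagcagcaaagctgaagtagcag
CXCL8, chr4:73740319-73740618, plus strand: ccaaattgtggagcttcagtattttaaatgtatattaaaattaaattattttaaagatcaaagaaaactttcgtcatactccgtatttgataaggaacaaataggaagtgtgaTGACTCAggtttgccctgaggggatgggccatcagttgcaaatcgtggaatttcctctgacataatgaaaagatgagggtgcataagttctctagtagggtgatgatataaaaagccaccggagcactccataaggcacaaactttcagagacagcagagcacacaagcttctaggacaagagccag
IL32, chr16:3065153-3065452, plus strand: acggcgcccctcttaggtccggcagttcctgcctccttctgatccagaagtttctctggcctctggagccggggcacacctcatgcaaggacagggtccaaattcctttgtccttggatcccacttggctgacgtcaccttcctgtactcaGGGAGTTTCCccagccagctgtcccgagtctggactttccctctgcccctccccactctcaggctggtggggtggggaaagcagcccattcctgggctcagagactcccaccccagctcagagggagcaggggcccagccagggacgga
In the CXCL10 window the interferon-response match began at position -221 from the transcript start and the NF-kB match at -122. CXCL11 held an AP-1 match at -87, CXCL8 an AP-1 match at -137 and IL32 an NF-kB match at -99 (a further window of IL32 held none). Of the ligands not shown, the window of CCL23 on chromosome 17 held none. CXCL16 was not among the members with a match, and whether it was among the 80 members with a window is not given here. The NF-kB core was in 15 of the members' windows (12.4%) and in 5.68% of all 35116 windows. The interferon-response core was in 10.7% against 3.57%, and the AP-1 core in 16.5% against 7.71%. The remaining motif, the ATF4 core TGATGNAA, was in 5.79% of the members' windows and 3.62% of all, in CCL18, CCL27, CCR6, CXCR6, IL20RB, IL21R and IL7R. These matches are exact letters in a window, and binding was not measured. A site of the same factor with another spelling is not marked, so a window without a match is not shown to lack one.

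Over all members, no difference between siATF4 and siCTRL passed the test. At a limma adjusted p under 0.05, 0 of 106 members and 0 of 14884 genes (0%) were called. At an unadjusted limma p under 0.05, 0 members were reached, with the lowest at 0.0599 for CXCL6, against 218 of all genes (1.46%). With the replicate number as a block, limma again called 0 members and 0% of all genes. The mean was lower with siATF4 for 70 of 106 members (66.0%) and for 46.2% of all genes, and the median difference was -0.04 for members and 0.01 for all genes. The count of lower members was 55 without siCTRL replicate 2, 56 without siATF4 replicate 3, 57 without siCTRL replicate 1 and 76 without siCTRL replicate 3. In the same order, 6920, 7453, 7030 and 7020 of the 14884 genes were lower. Within same-numbered arrays, 60, 56 and 50 of the 106 members were lower with siATF4, against 7261, 6888 and 6776 of the 14884 genes. Members were thus nearly even on numbers 2 and 3, while all genes were somewhat under an even split on each number. In these bulk samples, fewer cells of a type and less RNA per cell cannot be told apart.

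Many members varied between arrays of the same group. Of 106 members, 29 (27.4%) had a range of at least 1 log2 unit over the 6 arrays, against 12.2% of all genes. They were 13 of 65 ligands (20.0%), 13 of 37 receptors (35.1%) and 3 of 4 regulators. Many members were dim, with 48 of 106 (45.3%) among the dimmest 33.3% of all genes (levels under 3.77) and 11 (10.4%) among the brightest 33.3% (above 5.77). Signal over background was not analysed, so a dim value is not shown to be a transcript.

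**Figure D1:**
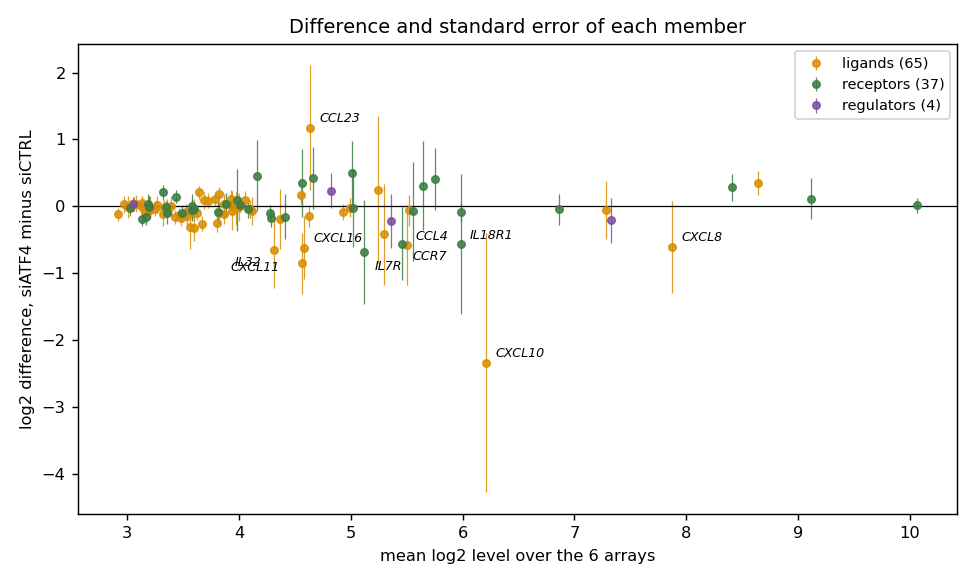
Each point is a member, with its mean log2 level over the 6 arrays on the x axis and its log2 difference, siATF4 minus siCTRL, on the y axis; vertical lines are limma's standard error. CXCL10 (-2.34) and CCL23 (1.18) lie farthest from 0 and have standard errors of 1.94 and 0.93, while dim members cluster near 0.

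CXCL10 had the largest difference in size of all 14884 genes, and its values were split by array rather than by siRNA. CXCL10 attracts T and NK cells through CXCR3 and is a textbook interferon-induced gene. It read 3.16, 8.34 and 3.63 after siATF4 and 9.73, 8.79 and 3.63 after siCTRL, which gave group means of 5.04 ± 2.86 and 7.38 ± 3.29 (SD, n = 3). It was thus high on siCTRL replicates 1 and 2 and on siATF4 replicate 2 and low on the other 3 arrays, and the groups overlapped. The difference was -2.34 (SE 1.94), with an exact permutation p of 0.3 and a limma adjusted p of 1.00. By replicate number the difference was -6.56, -0.45 and 0.01, so most of it lay in number 1.

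CXCL11, another CXCR3 ligand, read 3.44, 4.83 and 4.14 after siATF4 and 5.81, 4.61 and 4.55 after siCTRL. The groups overlapped, the difference was -0.85 (SE 0.45, exact permutation p 0.3), and siATF4 replicate 1 was the lowest and siCTRL replicate 1 the highest array, as for CXCL10. IL32 encodes an inflammatory cytokine. It read 3.43, 5.02 and 3.51 after siATF4 and 5.21, 5.07 and 3.65 after siCTRL, a difference of -0.65 (SE 0.56, exact permutation p 0.2). Its high arrays were the same 3 as those of CXCL10. CXCL16, a membrane-anchored chemokine that binds CXCR6, read 4.03, 5.11 and 3.68 after siATF4 and 5.61, 4.92 and 4.14 after siCTRL. It was again highest on siCTRL replicates 1 and 2 and siATF4 replicate 2, and its difference was -0.62 (SE 0.48, exact permutation p 0.4). CXCL9, which also binds CXCR3, was chosen after its values were seen, and read 3.28, 3.70 and 3.25 against 4.46, 3.52 and 3.18. Without both arrays of number 1 the differences were -0.22 for CXCL10, -0.09 for CXCL11, -0.09 for IL32 and -0.13 for CXCL16.

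A pair of receptors had a similar split. CCR7, which guides cells to lymph nodes along CCL19 and CCL21, read 4.26, 6.21 and 5.07 after siATF4 and 6.30, 5.98 and 4.93 after siCTRL (difference -0.56, SE 0.55). IL7R, the specific chain of the IL7 receptor, read 4.08, 5.95 and 4.31 after siATF4 and 6.95, 5.25 and 4.17 after siCTRL (-0.68, SE 0.78). Both were high on siCTRL replicates 1 and 2 and siATF4 replicate 2, with overlapping groups. Without both arrays of number 1 the differences were 0.18 for CCR7 and 0.42 for IL7R, and without siCTRL replicate 1 alone IL7R came to 0.07.

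The arrays on which these members were high were also those on which 2 other lists were high. The mean of 23 measured type I interferon genes (of 30 listed) was 5.10, 6.20 and 5.17 with siATF4 and 6.90, 6.0 and 5.19 with siCTRL. The mean of 14 NF-kB genes (of 22 listed) was 5.83, 6.48 and 5.85 against 6.61, 6.26 and 6.0. All 23 interferon genes had a lower mean with siATF4 (median -0.51), but none was called and each gene's groups overlapped, and without both arrays of number 1 the count was 6 of 23 with a median of 0.09. Without siCTRL replicate 1 it was 13 of 23, with a median of -0.05. The count was 17 without siATF4 replicate 3 and 22 without siATF4 replicate 1, with a median of -0.35 in each case. With any other array or number left out, all 23 stayed lower. IFITM1, a membrane protein that hinders viral entry, differed by -1.31 (SE 0.91) and IFIT1, which binds viral RNA, by -1.06 (SE 0.70). Without siATF4 replicate 1 IFITM1 came to -0.13, and without siCTRL replicate 1 IFIT1 came to -0.39. Of the NF-kB genes 9 were lower and 5 higher (median -0.19), and ICAM1, an adhesion molecule, differed by -0.97 (SE 0.80) and TNF by -0.59 (SE 0.39). The NF-kB median was -0.013 without both arrays of number 1 and -0.06 without siATF4 replicate 3. ICAM1 came to -0.35 without siATF4 replicate 1, and TNF to -0.12 without siCTRL replicate 1. The part of either list's rise on those arrays in the members' levels was not tested.

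**Figure D2:**
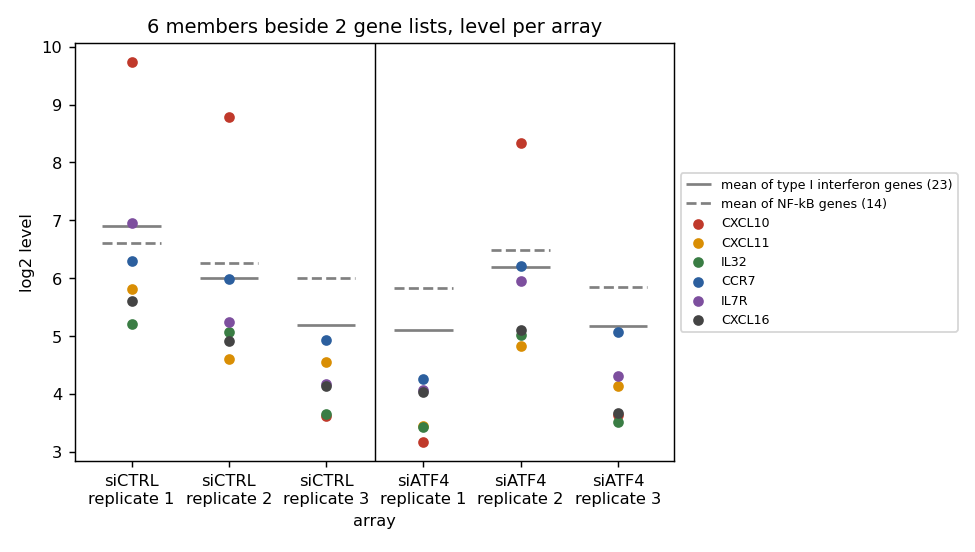
Log2 level (y axis) of CXCL10, CXCL11, IL32, CCR7, IL7R and CXCL16 on each array (x axis), as coloured points, beside the mean of 23 type I interferon genes (solid bars) and of 14 NF-kB genes (dashed bars). CXCL10 reads 9.73, 8.79 and 8.34 on siCTRL replicates 1 and 2 and siATF4 replicate 2, the arrays on which both list means are highest, and at most 3.63 on the rest.

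A second group of members stood apart on siATF4 replicate 1. On that array 15 of 106 members (14.2%) lay at least 1 log2 unit from the median of the other 5, 7 of them higher and 8 lower, and 10 of them were receptors. CCL23 attracts monocytes through CCR1. It read 7.62, 3.86 and 4.19 after siATF4 and 3.90, 4.09 and 4.15 after siCTRL, a difference of 1.18 (SE 0.93, exact permutation p 0.6). A single array carried it: without siATF4 replicate 1 the difference was -0.02.

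The receptors CX3CR1, CXCR2 and IL23R were likewise highest there. CX3CR1, the receptor of the tethered chemokine CX3CL1 on monocytes, read 6.36, 4.98 and 4.45 after siATF4 and 5.11, 4.88 and 4.32 after siCTRL (0.50, SE 0.48). CXCR2, a receptor of CXCL8, read 5.71, 3.96 and 3.50 against 4.16, 3.83 and 3.80 (0.46, SE 0.53). IL23R, the specific chain of the IL23 receptor, read 6.01, 4.37 and 4.23 against 4.49, 4.67 and 4.19 (0.42, SE 0.46). Without siATF4 replicate 1 these differences were -0.05, -0.20 and -0.15. Chosen after their values were seen, CCR1 (7.02 on that array, 5.14 to 5.94 elsewhere), CCR2 (7.09 against 4.46 to 5.96), IL31RA (5.93 against 3.88 to 4.71) and IL18BP, which neutralises the IL18 protein (5.56 against 4.51 to 4.77), were also highest there.

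Other members were lowest on the same array. CXCL8, the main neutrophil attractant, read 5.89, 8.46 and 8.37 after siATF4 and 8.43, 7.63 and 8.47 after siCTRL. Its groups overlapped, and the difference of -0.60 (SE 0.69, exact permutation p 0.6) became 0.24 without siATF4 replicate 1. IL18R1, the binding chain of the IL18 receptor, read 3.27, 6.40 and 7.45 after siATF4 and 5.46, 6.19 and 7.15 after siCTRL. Its difference of -0.56 (SE 1.04) became 0.66 without that array and 0.23 with limma's array weights. IL1RL1, the receptor of IL33, chosen after its values were seen, read 3.66 there and 5.35 to 6.73 elsewhere. Beside these members, the myeloid genes CSF1R (8.18 there, 5.05 to 6.57 elsewhere) and CSF3R (7.40 against 4.42 to 6.42) were highest and MPO, the peroxidase of myeloid granules (5.58 against 8.45 to 10.45), was lowest on siATF4 replicate 1. The part of these myeloid genes' levels in the members' values was not tested.

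**Figure D3:**
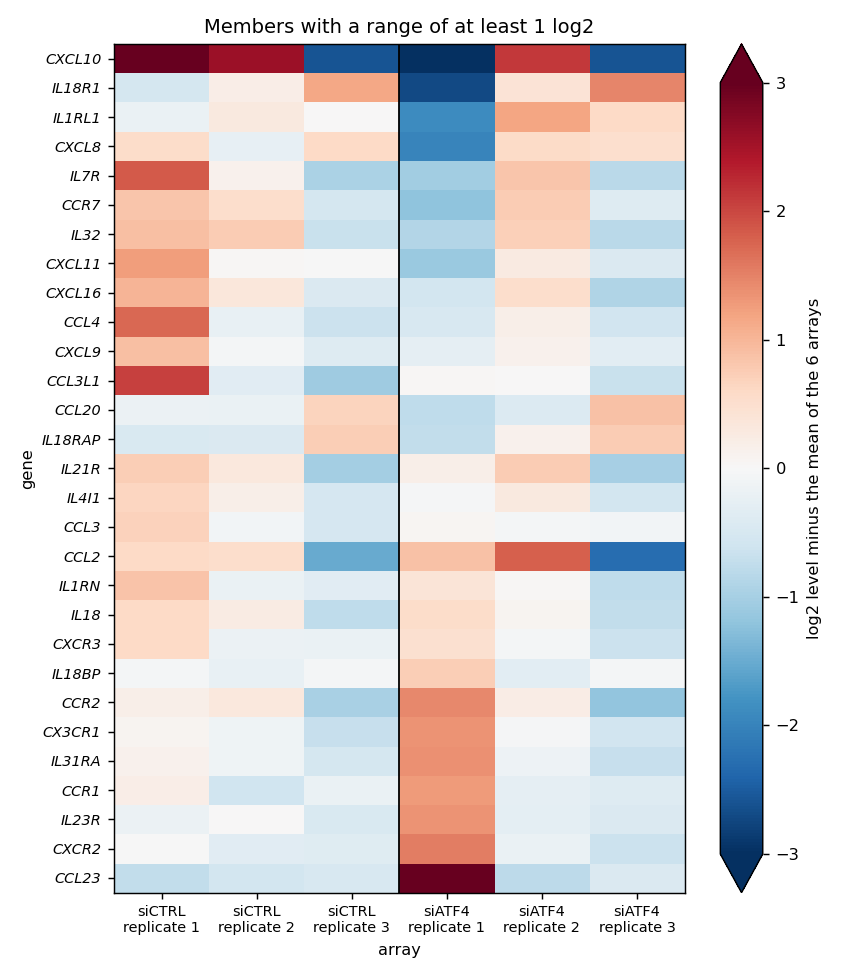
The 29 members with a range of at least 1 log2 unit (rows) on each array (columns); colour is the log2 level minus the mean of the 6 arrays, from blue (lower) to red (higher), with the scale ending at 3 in size. The column of siATF4 replicate 1 holds the highest value of CCL23 (7.62) and the lowest of IL18R1 (3.27), and CXCL10 is red on siCTRL replicates 1 and 2 and siATF4 replicate 2.

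Some members followed the replicate number, as did many of all genes. On both arrays of number 3, 24 members (22.6%) lay below all other 4 arrays and 5 (4.72%) above them, whereas 12.5% of all genes lay below and 16.7% above. For number 1 the members' counts were 6 below (5.66%, against 7.36% of all genes) and 15 above (14.2%, against 8.51%). For number 2 they were 4 below (3.77%, against 9.27%) and 8 above (7.55%, against 8.12%). Of the members named here, CCL2, CCR2, IL21R, IL18RAP and CCL20 were chosen after their values were seen. CCL2, which recruits monocytes, read 6.13, 7.02 and 2.95 after siATF4 and 5.84, 5.78 and 3.73 after siCTRL, and CCR2 is its receptor. CCR2 read 7.09, 5.86 and 4.46 against 5.82, 5.96 and 4.68. The mean of number 3 minus that of numbers 1 and 2 was thus -2.85 for CCL2 and -1.61 for CCR2, and number 3 was lowest in both groups for each. IL21R, the specific chain of the IL21 receptor, differed by -1.51 between number 3 and the rest.

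IL18 is a cytokine released after cleavage by inflammasome caspases. It read 7.84, 7.37 and 6.55 after siATF4 and 7.88, 7.54 and 6.51 after siCTRL, so the groups nearly coincided. The difference was -0.05 (SE 0.44, or 0.11 with the replicate number as a block), while number 3 differed from the rest by -1.13. CXCR4 read 9.53, 9.35 and 8.64 after siATF4 and 9.38, 9.25 and 8.53 after siCTRL. Its difference was 0.12 (SE 0.31), and by number it was 0.15, 0.10 and 0.10, small and of the same sign in each pair, though -0.06 without siATF4 replicate 1 and -0.14 without siCTRL replicate 3. Both receptor chains of IL18 went the other way by number: IL18R1 was 1.97 and IL18RAP, the signalling chain, 1.13 higher on number 3. CCL20, the ligand of CCR6, was 1.16 higher there. The 5 measured myeloid markers also differed by number, in both directions. LYZ was lowest on number 3, at 8.33 and 8.51 against 10.37 to 10.87 on the other arrays, as were FLT3, CSF1R and CD14. MPO was highest there, at 10.45 and 10.17 against 5.58 to 9.53. The part of these markers in the members' values was not tested.

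**Figure D4:**
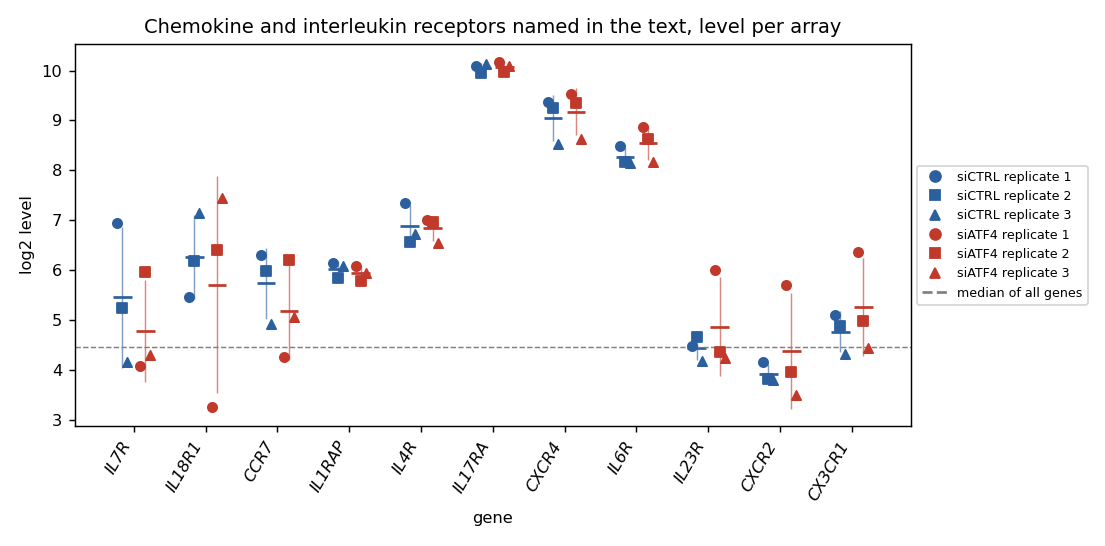
Log2 level (y axis) of 11 receptors (x axis) on each siCTRL array (blue) and siATF4 array (red), with circles, squares and triangles for replicates 1, 2 and 3, bars for group means and vertical lines for the SD. IL17RA lies near 10.08 in both groups, and the triangles of CXCR4 (8.53 and 8.64) lie below its other points in both groups.

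Other members among the brightest 33.3% of genes showed small differences between groups. IL17RA, the chain shared by receptors of the interleukin-17 family, read 10.18, 9.97 and 10.09 after siATF4 and 10.10, 9.95 and 10.13 after siCTRL. Its difference was 0.02 (SE 0.11), and its sign turned with siATF4 replicate 1 left out (-0.03). CCL5 attracts T cells and monocytes. It read 9.11, 8.78 and 8.57 after siATF4 and 8.22, 8.60 and 8.59 after siCTRL, a difference of 0.35 (SE 0.18, exact permutation p 0.3) with overlapping groups. IL6R, the binding chain of the IL6 receptor, read 8.86, 8.62 and 8.17 after siATF4 and 8.48, 8.17 and 8.15 after siCTRL (0.28, SE 0.20, exact permutation p 0.3). CCL5 and IL6R were both highest on siATF4 replicate 1, and by number CCL5 differed by 0.89, 0.18 and -0.02 and IL6R by 0.38, 0.45 and 0.02. Without siATF4 replicate 1 CCL5 came to 0.20 and IL6R to 0.13, and without both arrays of number 1 CCL5 came to 0.08.

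IL4R, the chain common to the receptors of IL4 and IL13, read 7.0, 6.97 and 6.55 after siATF4 and 7.35, 6.56 and 6.73 after siCTRL (-0.04, SE 0.23). IL1RAP, the accessory chain of the interleukin-1 receptor family, read 6.09, 5.79 and 5.95 against 6.14, 5.85 and 6.08 (-0.08, SE 0.13). For both the group means lay closer than the spread within groups. Of the regulators, IL4I1, a secreted amino acid oxidase, read 7.29, 7.62 and 6.76 against 7.97, 7.50 and 6.81 (-0.21, SE 0.33). IL1RN, the antagonist of the interleukin-1 receptor, was chosen after its values were seen and read 5.76, 5.39 and 4.60 against 6.21, 5.16 and 5.03 (-0.22, SE 0.40). The sign of IL1RN turned without siATF4 replicate 3 (0.11) and without siCTRL replicate 1 (0.16).

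Ligands and receptors as classes differed little in their median. Ligands were lower with siATF4 in 47 of 65 (72.3%, median -0.05) and receptors in 21 of 37 (56.8%, median -0.02). Of all genes 46.2% were lower. Among the dimmest 33.3% of all genes were 34 ligands (52.3%) and 13 receptors (35.1%), so many of these signs rest on dim values. After quantile normalization the lower counts were 43 ligands and 20 receptors, and with array weights 41 ligands and 17 receptors. The shares of all genes that were lower under these settings were 48.5% and 46.5%. The receptor median lay between -0.08 and 0.04 as arrays were left out, so its sign was not settled, and the ligand median between -0.08 and -0.02. Within same-numbered arrays 34, 40 and 33 of the 65 ligands were lower, against 7261, 6888 and 6776 of the 14884 genes. By family, 9 of 13 CXC chemokines (median -0.14), 15 of 22 CC chemokines (-0.06) and 20 of 27 interleukins (-0.04) had a lower mean. Within same-numbered arrays the lower counts were 6, 6 and 8 for CXC chemokines, 14, 10 and 8 for CC chemokines and 14, 21 and 14 for interleukins. Without siCTRL replicate 1 the CC chemokines had 9 of 22 lower (median 0.06). Of the 27 interleukins, 19 (70.4%) were among the dimmest 33.3% of all genes. No family had a called member.

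**Figure D5:**
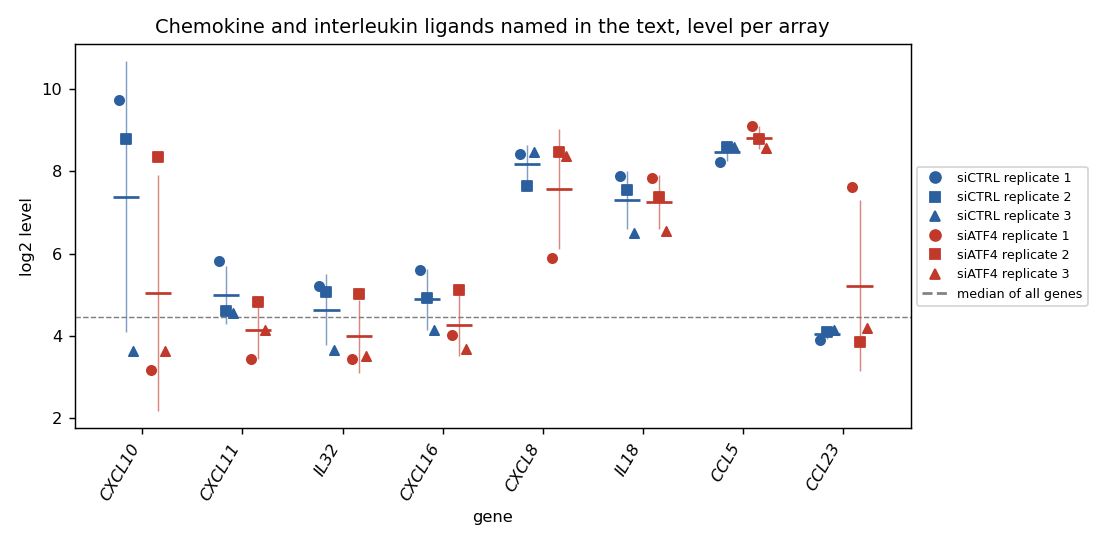
Log2 level (y axis) of 8 ligands (x axis) on each siCTRL array (blue) and siATF4 array (red), with circles, squares and triangles for replicates 1, 2 and 3, bars for group means, vertical lines for the SD and a dashed line at the median of all genes (4.47). The groups overlap for each ligand, and the circle at 7.62 is CCL23 on siATF4 replicate 1.

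The groups did not overlap for 10 members, all with a mean level below the median of all genes. All siATF4 arrays lay above all siCTRL arrays for 4 members (3.77%, against 3.3% of all genes) and below them for 6 (5.66%, against 2.59%). Their levels were between 2.78 and 3.97, the largest difference was 0.26 in size, and none passed the test. Above were CXCL17 (0.19, SE 0.10), IL15 (0.21, SE 0.10), CXCR1 (0.21, SE 0.11) and IL17RD (0.15, SE 0.10). Below were CXCL6 (-0.26, SE 0.11), IL7 (-0.18, SE 0.11), CCR9 (-0.16, SE 0.11), IL25 (-0.15, SE 0.10), CCL25 (-0.13, SE 0.10) and IL22 (-0.12, SE 0.10). IL15, which sustains NK and memory T cells, read 3.68, 3.73 and 3.83 against 3.56, 3.51 and 3.53. CXCL6, a neutrophil attractant, read 3.42, 3.56 and 3.62 against 3.75, 3.92 and 3.72. CXCR1, a receptor of both CXCL6 and CXCL8, read 3.57, 3.40 and 3.30 against 3.24, 3.23 and 3.16. The exact permutation p of each of the 10 was 0.1, the smallest possible. Groups that do not overlap always give this value, so it adds nothing to the choice of these members.

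CCL3, CCL3L1 and CCL4, inflammatory chemokines of macrophages chosen here after their values were seen, were highest on siCTRL replicate 1. CCL4 read 5.02, 5.68 and 4.93 after siATF4 and 7.23, 5.28 and 4.85 after siCTRL (-0.58, SE 0.60). CCL3L1 read 5.33, 5.30 and 4.63 against 7.34, 4.95 and 4.24 (-0.42, SE 0.75), and CCL3 read 4.64 on that array and 3.43 to 3.99 elsewhere. Without siCTRL replicate 1 the signs turned, to 0.15 for CCL4 and 0.50 for CCL3L1. These genes have near-identical copies, so which copy a probe set read is uncertain. On siCTRL replicate 1, 10 members (9.43%) lay at least 1 log2 unit from the median of the other arrays, all of them higher. Of all genes 134 (0.900%) did, 114 of them higher and 20 lower. Of all members, 76 fall outside the rule for named genes, with differences between -0.58 and 0.41 and levels between 2.75 and 7.34.

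Genes around the members showed no called change either, with 0 called in each list. Of 20 other chemoattractant genes (21 listed) 10 were higher and 10 lower, and the largest differences were PTAFR, the receptor of platelet-activating factor (0.30, SE 0.54), and PF4V1, a platelet chemokine variant (-0.24, SE 0.12). Of 18 haematopoietic cytokine genes (24 listed) 12 were higher and 6 lower, with KITLG, the stem cell factor, at -0.68 (SE 0.36) and CSF1R at 0.57 (SE 0.78). Without siATF4 replicate 1, CSF1R came to -0.26 and KITLG to -0.27, and without siCTRL replicate 3, PTAFR came to -0.22. The 16 JAK, STAT and SOCS genes (26 listed), which carry interleukin signals, were 8 higher and 8 lower. JAK2 differed by 0.36 (SE 0.40) and by -0.03 without siATF4 replicate 1, and STAT5A by 0.32 (SE 0.27) and by 0.10 without that array.

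Of 16 interleukin-1 adaptor and inflammasome genes (24 listed) 10 were higher and 6 lower, with the ubiquitin ligases PELI1 at -0.35 (SE 0.16) and PELI2 at -0.34 (SE 0.18). The 12 chemokine receptor signalling genes (26 listed) were 6 higher and 6 lower. RGS16, which switches off G proteins, read 4.21, 6.55 and 5.65 after siATF4 and 7.12, 6.73 and 6.27 after siCTRL (-1.23, SE 0.56), with overlapping groups. By number it differed by -2.91, -0.17 and -0.62, and without siATF4 replicate 1 it came to -0.60. RGS18, of the same family, differed by 0.57 (SE 0.48), and by 0.16 without both arrays of number 1. Over these 5 lists, LEPR, the leptin receptor (0.33, SE 0.11, limma p 0.0224), and TAB2, a kinase adaptor (0.29, SE 0.12, limma p 0.046), were below an unadjusted 0.05, both with an adjusted p of 1.00. They were 1 of 18 haematopoietic cytokine genes and 1 of 16 interleukin-1 adaptor and inflammasome genes, with none in the other lists. Of all genes 1.46% were below that limit.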

How the data were processed

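Total RNA (100 ng) of the 6 MOLM14 samples was made into biotin-labelled target with an Affymetrix kit and read on arrays, as the labels state. The deposited values, 1 per probe set and sample, were read as log2 from their range (1.91 to 14.2). The submitters' processing notes name Partek; the background correction, normalization and base of the logarithm are not given in the sources used here. Array medians were 3.88 to 3.96, so no further scaling was applied. Of 53617 probe sets, 16098 had 1 gene symbol, none had several and 37519 were unnamed. The brightest probe set stood for the 779 genes with several. Each member had a single one. Levels are probe brightness, so levels of different genes are not amounts of RNA.

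All 14884 genes were fitted with limma 3.58.1 in R 4.3.3 (group as the only term, Benjamini-Hochberg over all genes, threshold 0.05). The script was tested on simulated data. A difference is the siATF4 mean minus the siCTRL mean of log2 levels. SE is limma's moderated standard error without the replicate block unless the block is named, and SD the spread of a group's 3 arrays. Replicate numbers were taken to pair the samples by the data alone, since each same-numbered correlation of deviations (0.20, 0.40, 0.62) passed 0.1. The correlation of siATF4 replicate 2 with siCTRL replicate 1 (0.48) passed it too, so this limit alone does not single out the pairing. The labels do not say what a number shares.

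The rule for named genes took members among the brightest 33.3% of all genes, the 6 ligands and 6 receptors with the largest differences in size, members whose groups did not overlap, any called member, the 2 largest differences of each pathway list, and ATF4. The members, lists and tests were chosen with earlier results of these data known. Alternatives tried were the replicate block, equal array medians, quantile normalization, array weights, the rule for several probe sets, a filter on dim genes and each array left out.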

Additional observations from a re-analysis of the deposited data

How the results depend on the processing

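No gene was called at a limma adjusted p under 0.05 under any of the 16 alternatives run, and the number of genes at an unadjusted p under 0.05 ran from 121 without the dimmest 33.3% of genes to 464 with the replicate block, against 218. With the block the ligand median was -0.05, unchanged by design since each number holds an array of each group, and the pairing changed no call. The ligand median stayed below 0 in all alternatives (-0.08 to -0.02), and the receptor median ran from -0.08 to 0.04. The block could not move either median. Nor could the rule for several probe sets, since each member had a single one. Leaving out both arrays of a replicate number was chosen after seeing the data. Of 30 named members, 17 changed sign under no alternative. These include the 10 members whose groups did not overlap, and leaving out arrays cannot turn the sign of such a member. The other 13 changed sign with an array or a pair of arrays left out. Their ranges were -0.10 to 1.88 for CCL23, -1.07 to 0.18 for CCR7, -0.053 to 0.90 for CX3CR1, -1.32 to 0.36 for CXCL8, -0.20 to 0.90 for CXCR2, -0.14 to 0.38 for CXCR4, -0.036 to 0.075 for IL17RA, -0.45 to 0.30 for IL18, -1.43 to 0.66 for IL18R1, -0.15 to 0.78 for IL23R, -0.51 to 0.065 for IL4I1, -0.27 to 0.19 for IL4R and -1.37 to 0.42 for IL7R. With array weights IL17RA was -0.031 and IL18R1 0.23. Without siATF4 replicate 1 alone 8 of them changed sign, and without siATF4 replicate 2 none did. The cause was not tested. The 6 arrays limit the precision, and signal over background was not analysed.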
